A study of Mus musculus with 24 samples.

Results

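Toll-like receptors, their adaptor Myd88, the chaperone Unc93b1 and the RNA-sensing adaptor Mavs were followed across the mouse nucleus accumbens, a ventral striatal region made mainly of medium spiny neurons. The 10 genes, Tlr1, Tlr2, Tlr3, Tlr4, Tlr7, Tlr9, Tlr13, Myd88, Unc93b1 and Mavs, were chosen by name, each by the Ensembl ID that carries its symbol, out of 55401 gene IDs in the count table. All 10 had a row, and all 10 passed the filter on low counts. The study crossed a nerve injury with a virus and compared the libraries of the 4 resulting groups, 6 libraries in each.

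In the SNI Mef2c and SNI Gfp groups the tibial form of spared nerve injury (SNI), a model of lasting neuropathic pain, was made at the left sciatic nerve. In the Sham Mef2c and Sham Gfp groups the nerve was exposed and not touched. The Mef2c groups received AAV8-hSyn-Mef2c-Egfp, which carries the transcription factor gene Mef2c under the neuronal hSyn promoter, and the Gfp groups AAV8-hSyn-Egfp, in both accumbens nuclei. All 4 groups therefore carried an adeno-associated virus and green fluorescent protein, and no group without a virus was analysed here. The mice were 8 to 9 weeks old and of the strains C57BL/6J or DBA/2J, and which library came from which strain is not given in the sources used here. Because the labels do not say that each library came from its own mouse, the p-values measure the spread among these libraries.

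Toll-like receptors are membrane sensors of microbial and self molecules. Tlr1, Tlr2 and Tlr4 act mainly at the cell surface on lipids and lipoproteins, whereas Tlr3, Tlr7, Tlr9 and Tlr13 sense nucleic acids inside endosomes, where the chaperone Unc93b1 carries them. Most pass their signal to the adaptor Myd88, Tlr3 uses Ticam1 instead, and Mavs serves the separate cytosolic RNA sensors Ifih1 and Ddx58 from the surface of mitochondria. In the brain, microglia express most of these receptors, and astrocytes express Tlr3.

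Levels are in CPM, counts brought to a common library total with TMM scaling, and the libraries' totals ran between 25477019 and 36570108 counts. Mef2c itself, the gene carried by the virus, was at 474 to 832 CPM in SNI Mef2c and 123 to 469 CPM in Sham Mef2c libraries, against 133 to 221 CPM in SNI Gfp and 139 to 212 CPM in Sham Gfp libraries. Sham Mef2c libraries 2 and 5, at 125 and 123 CPM of Mef2c, lay below every Sham Gfp library, so they go against their label. Medium spiny neuron markers were present in all groups, with 8 markers summing to between 1380 and 4370 CPM. Cortical neuron markers, which the accumbens should hold little of, summed to between 127 and 2070 CPM, with the highest values in SNI Mef2c and SNI Gfp libraries. The 12 microglia markers summed to 468 to 541 CPM in SNI Mef2c, 447 to 967 CPM in Sham Mef2c, 454 to 849 CPM in SNI Gfp and 713 to 1010 CPM in Sham Gfp libraries. The top of the Sham Mef2c range was library 6, and the other 5 Sham Mef2c libraries lay between 447 and 472 CPM. Because the tissue was sequenced in bulk, fewer cells of a type and less RNA per cell cannot be told apart.

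Promoter sequences were available for 7 of the 10 genes, and those of 4 are shown because they set genes that fell by different amounts beside the one that did not fall. Each line runs from 250 bases before to 50 bases after the RefSeq start of transcription on GRCm38.p6, 5′ to 3′ on the gene's strand, and capitals mark matches to the 5 motifs searched on both strands.
Tlr2, chr3:83841559-83841858, minus strand: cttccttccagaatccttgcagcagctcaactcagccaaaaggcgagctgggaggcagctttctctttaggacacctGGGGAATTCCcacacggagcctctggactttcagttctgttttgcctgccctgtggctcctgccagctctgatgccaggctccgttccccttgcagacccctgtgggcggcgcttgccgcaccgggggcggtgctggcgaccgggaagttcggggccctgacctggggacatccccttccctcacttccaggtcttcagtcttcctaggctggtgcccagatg
Tlr9, chr9:106222348-106222647, plus strand: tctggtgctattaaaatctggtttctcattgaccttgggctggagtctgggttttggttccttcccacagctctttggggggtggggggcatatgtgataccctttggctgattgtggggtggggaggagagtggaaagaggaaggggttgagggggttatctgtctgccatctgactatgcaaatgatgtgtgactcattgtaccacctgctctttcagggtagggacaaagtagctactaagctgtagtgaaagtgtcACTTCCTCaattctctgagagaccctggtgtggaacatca
Myd88, chr9:119339969-119340268, minus strand: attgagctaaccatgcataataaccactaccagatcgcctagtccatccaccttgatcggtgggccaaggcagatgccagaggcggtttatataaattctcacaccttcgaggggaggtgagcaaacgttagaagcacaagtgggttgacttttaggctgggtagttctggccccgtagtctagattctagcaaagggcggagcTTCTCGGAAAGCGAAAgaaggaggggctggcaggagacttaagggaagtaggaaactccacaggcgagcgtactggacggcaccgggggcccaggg
Mavs, chr2:131233813-131234112, plus strand: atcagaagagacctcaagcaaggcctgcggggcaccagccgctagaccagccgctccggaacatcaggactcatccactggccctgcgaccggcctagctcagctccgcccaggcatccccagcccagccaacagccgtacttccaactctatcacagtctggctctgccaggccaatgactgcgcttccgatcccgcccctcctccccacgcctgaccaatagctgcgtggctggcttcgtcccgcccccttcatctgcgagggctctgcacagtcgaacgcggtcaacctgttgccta

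An NF-kB-like motif, searched with the 2 middle bases free, matched the Tlr2 window as GGGGAATTCC, and 1.47% of 32851 mouse promoter windows held it. The PU.1 core GAGGAAGT, the core of the motif bound by a factor of myeloid cells, matched the Tlr9 window on the minus strand, where the printed strand reads ACTTCCTC, and 3.2% of windows held it. The Myd88 window held the interferon-response core as GAAAGCGAAA, searched with its 2 middle bases free and present in 3.44% of windows, which overlapped a match of the gamma-activated site TTCNNNGAA, present in 8.3%. A second NF-kB-like form, also with 2 free bases, matched the Tlr3 window as GGGAGTTTCC and 1.47% of all windows. Tlr1, which has 2 annotated starts, held GAGGAAGT before one and TTCNNNGAA before the other. The Mavs and Tlr13 windows held none of these letters, and Tlr13 was among the genes that fell. Tlr4, Tlr7 and Unc93b1 had no window. Whether any of these motifs is bound or bears on the levels was not tested.

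Expressed per kilobase of exon, Unc93b1 had the highest level of the 10 genes in each group, and of the receptors it carries Tlr3 came nearest. Unc93b1 averaged 5.77 ± 0.683 CPM per kilobase in Sham Mef2c and 21.9 ± 5.58 in Sham Gfp libraries (SD, n = 6 each). In Sham Mef2c libraries the order was Unc93b1, Mavs, Tlr3, Myd88, Tlr2, Tlr7, Tlr9, Tlr13, Tlr4 and Tlr1. There Mavs lay below Unc93b1, Myd88 below Tlr3 and Tlr1 below Tlr4 without overlap, and the other neighbours overlapped. In Sham Gfp libraries the order below Unc93b1, which did not overlap the rest, was Tlr3, Tlr2, Mavs, Tlr9, Tlr7, Tlr13, Myd88, Tlr4 and Tlr1, and each neighbouring pair in that list overlapped in range. Tlr2 averaged 0.607 ± 0.122 CPM per kilobase in Sham Mef2c and 5.06 ± 2.29 in Sham Gfp libraries, and Mavs 3.12 ± 0.489 in Sham Mef2c and 3.2 ± 0.507 in Sham Gfp libraries. These per-exon levels are approximate, because the deposited FPKM used whole gene spans as lengths, and the counts may include introns.

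**Figure D1:**
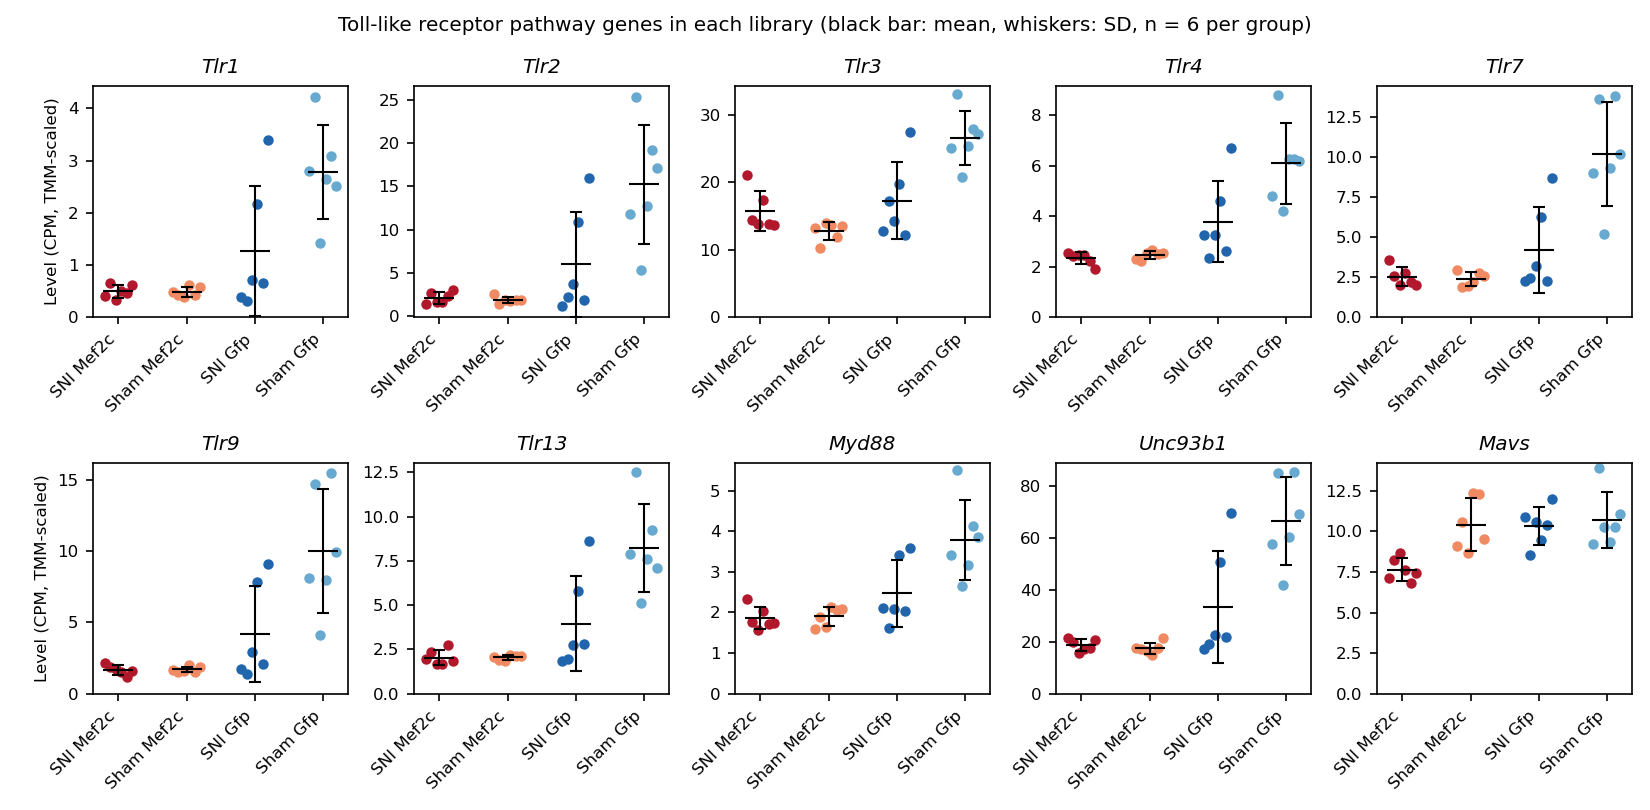
Level of each of the 10 genes in CPM (vertical axis, TMM-scaled) in every library of the 4 groups (horizontal axis); points are libraries, the black bar is the mean and the whiskers the SD of 6 libraries. For all but Mavs, the SNI Mef2c and Sham Mef2c libraries sit mostly low and the Sham Gfp libraries high. The SNI Gfp libraries spread across both levels, with Tlr2 between 1.17 and 16 CPM. For Tlr3, SNI Mef2c library 1, at 21.1 CPM, lies above the lowest Sham Gfp library, at 20.8 CPM.

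By edgeR, genes of the 10 passed in 1 of the 4 comparisons, the one without nerve injury. In Sham Mef2c against Sham Gfp libraries, 9 of the 10 genes were lower and none was higher, and Mavs alone did not pass the test. All 7 Toll-like receptors among them fell, by 2.08-fold for Tlr3 to 8.32-fold for Tlr2, as did Myd88 and Unc93b1. Over all genes tested, 9.41% passed in either direction, 7.93% as lower and 1.48% as higher (edgeR quasi-likelihood test, Benjamini-Hochberg adjusted p under 0.05 over 23738 genes). For each of the 9 genes, every Sham Mef2c library lay below every Sham Gfp library, a separation found in the lower direction for 5.21% of genes tested. The median log2 fold change of the 10 genes was -1.97, beside 0.02 for all genes tested. The same 9 genes passed when Sham Mef2c libraries 2 and 5, whose Mef2c went against their label, were left out. This alternative was added after the data were seen, and 6.88% of genes passed in it. Libraries 2 and 5 were themselves low, at 1.4 and 1.8 CPM of Tlr2 and 17.3 and 17.5 CPM of Unc93b1. Whether the levels of these genes follow that of Mef2c was not tested.

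Among the surface receptors, Tlr2, the lipoprotein receptor that pairs with Tlr1 or Tlr6, moved most. The Tlr2 level had a lowest, median and highest value of 1.4, 1.78 and 2.51 CPM in Sham Mef2c libraries, against 5.32, 14.9 and 25.4 CPM in Sham Gfp libraries. The log2 fold change was -3.06 ± 0.52 (SE; edgeR adjusted p = 0.000292). Tlr2 lies on chromosome 3, 83836272 to 83841767 on the minus strand (mm10).

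Tlr1, the partner of Tlr2 for triacylated lipoproteins, was the least abundant of the 10. It had 0.389, 0.451 and 0.625 CPM in Sham Mef2c libraries, from 13 to 19 counts, against 1.42, 2.72 and 4.22 CPM in Sham Gfp libraries, from 47 to 132 counts. Its log2 fold change was -2.52 ± 0.44 (edgeR adjusted p = 0.000422). Tlr1 lies on chromosome 5 beside its close paralogue Tlr6, and how the authors assigned reads shared by paralogues is not given in the sources used here. Tlr6 was 0.973 to 1.73 CPM in Sham Mef2c and 2.3 to 4.81 CPM in Sham Gfp libraries, a log2 fold change of -1.60 ± 0.25 (edgeR adjusted p = 0.000175).

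Tlr4, the receptor for bacterial lipopolysaccharide, fell less than Tlr2. The Tlr4 values were 2.23, 2.52 and 2.66 CPM in Sham Mef2c libraries and 4.2, 6.23 and 8.82 CPM in Sham Gfp libraries, with a log2 fold change of -1.30 ± 0.20 (edgeR adjusted p = 0.000167). The log2 ratio of Tlr2 to Tlr4, both taken from the same library, averaged -0.44 ± 0.29 in Sham Mef2c and 1.2 ± 0.47 in Sham Gfp libraries (SD, n = 6 each). The ratios did not overlap (exact permutation p = 0.00216, two-sided and unadjusted, the smallest that the assignments of 12 libraries to 2 groups of 6 allow). It was 1 of 32 such gene-ratio differences computed, and the gene pairs were chosen after the values were seen.

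Among the endosomal receptors, Tlr9, which binds unmethylated CpG DNA, had 1.51, 1.64 and 2.01 CPM in Sham Mef2c libraries and 4.11, 9.02 and 15.5 CPM in Sham Gfp libraries. Its log2 fold change was -2.56 ± 0.40 (edgeR adjusted p = 0.000174). Tlr7, which binds single-stranded RNA, had 1.91, 2.4 and 2.93 CPM in Sham Mef2c and 5.2, 9.73 and 13.8 CPM in Sham Gfp libraries. The Tlr7 log2 fold change was -2.09 ± 0.31 (edgeR adjusted p = 0.000161). Tlr13, a mouse receptor for bacterial ribosomal RNA, had 1.82, 2.09 and 2.2 CPM in Sham Mef2c and 5.11, 7.73 and 12.5 CPM in Sham Gfp libraries, a log2 fold change of -2.01 ± 0.30 (edgeR adjusted p = 0.000164). Both X-linked receptors, Tlr7 and Tlr13, thus had fitted falls of similar size. Their log2 ratio, Tlr13 over Tlr7, was -0.20 ± 0.20 in Sham Mef2c and -0.29 ± 0.22 in Sham Gfp libraries (exact permutation p = 0.489).

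Tlr3, the receptor for double-stranded RNA, had the highest mean of the receptors per kilobase and the smallest fitted fall of the 7. Its values were 10.3, 13.4 and 14.0 CPM in Sham Mef2c and 20.8, 26.2 and 33.1 CPM in Sham Gfp libraries, with a log2 fold change of -1.05 ± 0.16 (edgeR adjusted p = 0.000172). The log2 ratio of Tlr3 to its chaperone Unc93b1 was higher, at -0.45 ± 0.24 in Sham Mef2c and -1.29 ± 0.20 in Sham Gfp libraries, without overlap (exact permutation p = 0.00216, unadjusted).

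Unc93b1, which escorts the endosomal receptors out of the endoplasmic reticulum, had 14.8, 17.4 and 21.2 CPM in Sham Mef2c libraries and 41.7, 64.5 and 85.2 CPM in Sham Gfp libraries. Its log2 fold change was -1.92 ± 0.28 (edgeR adjusted p = 0.000161), close in size to those of Tlr7 and Tlr13. Myd88, the adaptor shared by all the receptors here except Tlr3, fell by a smaller fitted amount. Myd88 had 1.6, 1.97 and 2.14 CPM in Sham Mef2c and 2.66, 3.64 and 5.5 CPM in Sham Gfp libraries, a log2 fold change of -1.0 ± 0.18 (edgeR adjusted p = 0.00066). The log2 ratio of Myd88 to Unc93b1 was -3.16 ± 0.23 in Sham Mef2c and -4.10 ± 0.16 in Sham Gfp libraries, without overlap (exact permutation p = 0.00216, unadjusted). The Myd88 value is uncertain, because the gene lies wholly inside the span of Slc22a14 and overlaps Acaa1a on the other strand. Over all 24 libraries Slc22a14 stayed between 57.7 and 77.3 CPM and Acaa1a between 12.7 and 16.9 CPM.

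Mavs was the exception. The Mavs level was 8.67, 10.0 and 12.4 CPM in Sham Mef2c and 9.25, 10.3 and 13.9 CPM in Sham Gfp libraries, overlapping over most of their range, with a log2 fold change of -0.04 ± 0.11 (edgeR adjusted p = 0.884). The sensors that signal through it were lower. Ifih1, the long double-stranded RNA sensor also called MDA5, was 1.69 to 2.47 CPM in Sham Mef2c and 8.34 to 29.9 CPM in Sham Gfp libraries (log2 fold change -3.30 ± 0.48, edgeR adjusted p = 0.000161). The log2 ratio of Mavs to Ifih1 was 2.27 ± 0.30 in Sham Mef2c and -0.86 ± 0.58 in Sham Gfp libraries (exact permutation p = 0.00216, unadjusted).

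**Figure D2:**
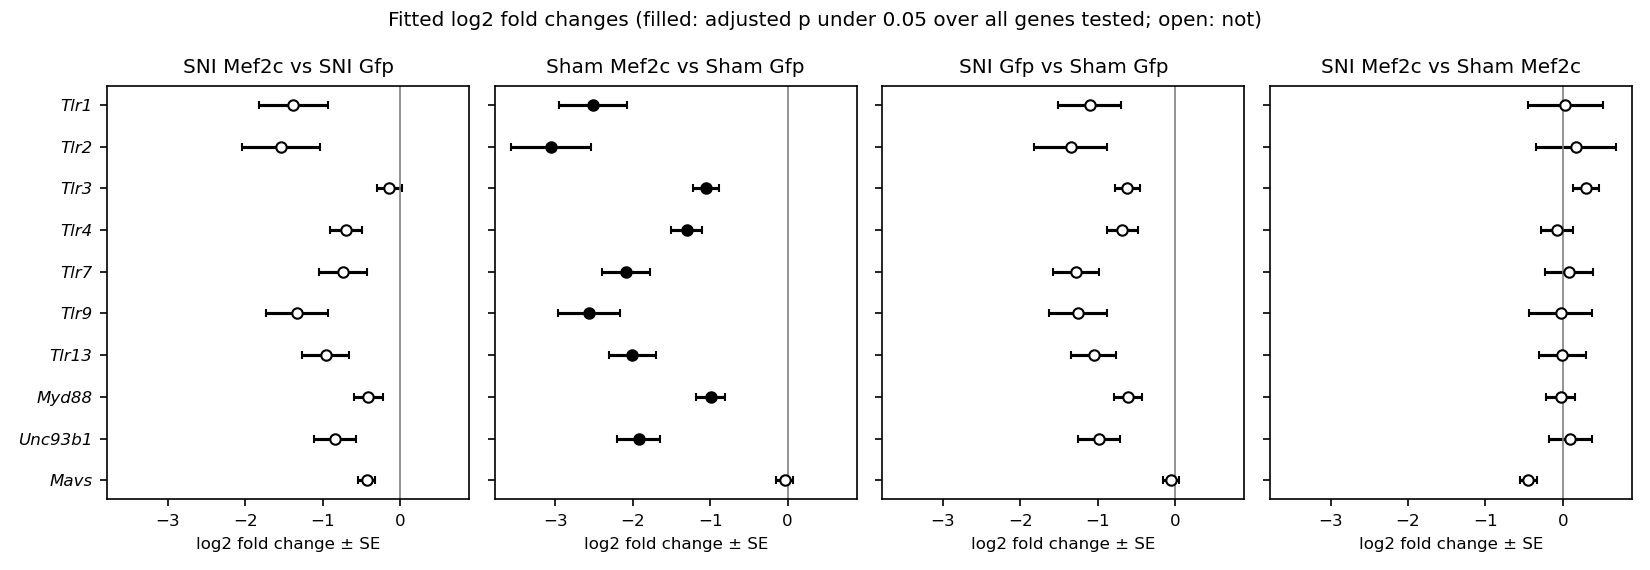
Fitted log2 fold change of each gene (horizontal axis, points, with the SE as bars) in the 4 comparisons, each panel titled with the group on top of the fold change first; filled points passed an adjusted p under 0.05 over all genes tested. In Sham Mef2c against Sham Gfp, 9 points are filled and negative, from -3.06 for Tlr2 to -1.0 for Myd88, and Mavs sits at -0.04, while no point is filled elsewhere.

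The other genes of the pathway, 98 in 10 lists by role, showed where in the pathway the Sham Mef2c libraries differed. Of the 93 tested, 56 were lower and 0 higher in Sham Mef2c than in Sham Gfp libraries by edgeR, with a median log2 fold change of -0.69. Of all genes, edgeR passed 7.93% as lower and 1.48% as higher. At an unadjusted edgeR p under 0.05, 3 were higher, where 21.2% of all genes passed in either direction and 12.5% as lower. DESeq2 passed 59 as lower and 0 as higher, where it passed 6.82% of all genes as lower and 1.61% as higher. limma-voom with quality weights passed 64 as lower and 3 as higher, where it passed 10.8% of all genes as lower and 7.78% as higher. Tlr5, the flagellin receptor, was at a log2 fold change of 0.47 ± 0.20 (edgeR adjusted p = 0.173), and limma-voom gave it an adjusted p of 0.0412. The lists were chosen with earlier results of these data known, so their counts describe them and test nothing about them.

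Sensors and their interferon arm were lower nearly throughout. Of the cytosolic RNA genes 8 of 11 were lower, among them Ddx58 (RIG-I), Dhx58 and the RNA-activated kinase Eif2ak2, with log2 fold changes of -2.20, -2.63 and -2.20. Of the cytosolic DNA genes 8 of 8 were lower, including Tmem173, which encodes STING, at -1.73 and Ifi204 at -6.28. Of the IRF and STAT factors 6 of 7 were lower, including Irf7, the interferon regulatory factor activated below Tlr7 and Tlr9, at -4.85 ± 0.65, and Stat2, a partner of Irf9 in interferon signalling, at -2.17 ± 0.30 (edgeR adjusted p = 0.000161 each). Irf7 and Irf9 overlap more abundant genes, and Irf7 was 1.15 to 1.84 CPM in Sham Mef2c and 9.01 to 76.1 CPM in Sham Gfp libraries.

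Outputs were lower too, in 8 of 9 tested. The chemokine Cxcl10 was 0 to 0.353 CPM in Sham Mef2c and 1.96 to 29.0 CPM in Sham Gfp libraries, and Tnf 0 to 0.18 CPM in Sham Mef2c and 0.363 to 3.36 CPM in Sham Gfp libraries. Cxcl10 overlaps a more abundant gene. Il6 and Ifnb1 were on the list and were not tested because their counts were too low.

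Of the MyD88 kinases and ubiquitin ligases 1 of 12 was lower, a share near the 7.93% of all genes. It was Irak4, at -0.20 ± 0.05 (edgeR adjusted p = 0.0131), and Traf6, the ligase downstream of the Irak kinases, had a log2 fold change of -0.16 ± 0.05 (edgeR adjusted p = 0.0746). Irak4 overlaps a more abundant gene, and without Sham Mef2c libraries 2 and 5 its adjusted p was 0.0671. The list's median was -0.05, beside 0.02 for all genes. At an unadjusted edgeR p under 0.05, 4 of the 12 were lower and 1 higher, beside 12.5% of all genes as lower. limma-voom with quality weights passed Traf6, Irak2 and Tab2 of this list as lower (adjusted p = 0.00969, 0.00562 and 0.00294). DESeq2 passed Irak2 and Tab2 as lower (adjusted p = 0.0443 and 0.0406). These tools passed 10.8% and 6.82% of all genes as lower. Of the TIR adaptors and their regulators 5 of 7 were lower, with Pik3ap1, the PI3-kinase adaptor BCAP, at -2.86 ± 0.42 (edgeR adjusted p = 0.000161). Ticam1, the adaptor of Tlr3, was lower at -0.34 ± 0.10 (edgeR adjusted p = 0.0251), a call that ended in several alternatives, with an adjusted p of 0.127 without Sham Mef2c libraries 2 and 5. Tirap, the bridge between Tlr2 or Tlr4 and Myd88, which overlaps a more abundant gene over 117 bases, at -0.29 ± 0.08 (edgeR adjusted p = 0.0213), had an adjusted p of 0.137 without those libraries.

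Genes that handle ligands and prepare receptors were split. Of the co-receptor list 4 of 8 were lower, Cd36, Ly86, Cd14 and Cd180, with log2 fold changes of -3.04, -2.15, -0.94 and -0.74. Cd14 passes lipopolysaccharide to Tlr4, and Cd180 overlaps a more abundant gene. Of the endosomal trafficking and protease list 7 of 14 were lower, among them the protease Ctss and the endolysosomal exonuclease Pld4, at -2.18 ± 0.31 and -2.12 ± 0.30, and the nucleoside transporter Slc29a3 at -1.05 ± 0.15 (edgeR adjusted p = 0.000161 each). Of the NF-kB genes and their brakes 7 of 14 were lower, with Nfkbie at -1.99 and the deubiquitinase Tnfaip3 at -1.17.

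Of the remaining Toll-like receptors, 2 of 3 tested were lower. Tlr12, a mouse receptor for a parasite profilin, was 0.362 to 0.674 CPM in Sham Mef2c and 1.39 to 7.48 CPM in Sham Gfp libraries, a log2 fold change of -2.89 ± 0.47 (edgeR adjusted p = 0.00022). Tlr8, which sits beside Tlr7, was 0.0721 to 0.209 CPM in Sham Mef2c and 0.121 to 0.426 CPM in Sham Gfp libraries, and, like Tlr11, it was not tested.

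**Figure D3:**
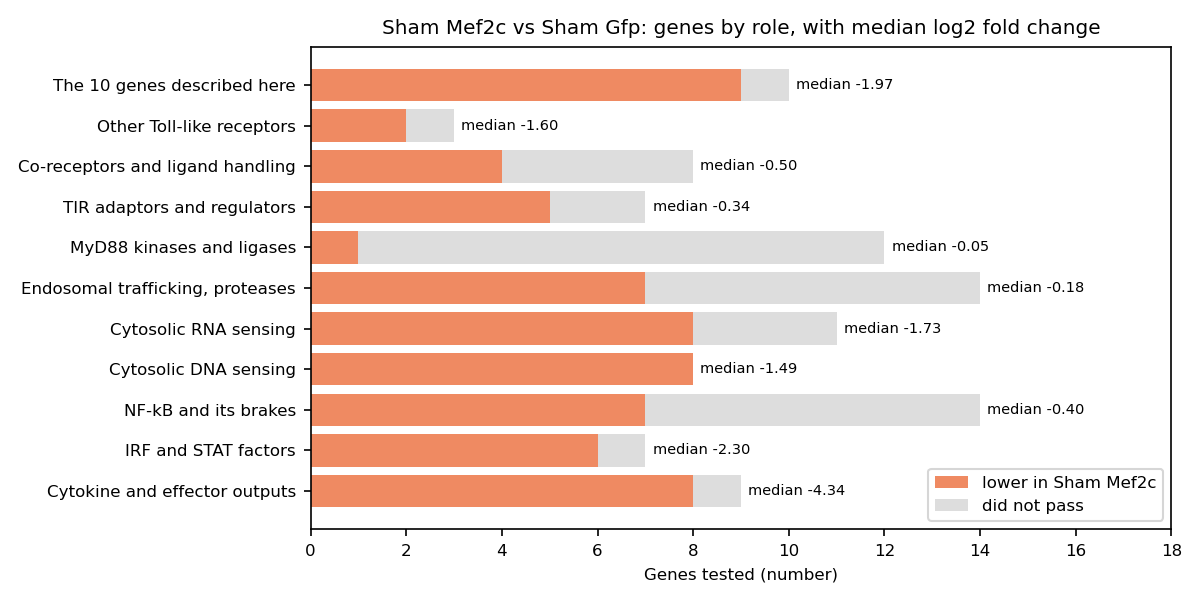
Number of genes tested (horizontal axis) in each role list for Sham Mef2c against Sham Gfp libraries, split into those lower at an adjusted p under 0.05 (orange) and those that did not pass (grey), with the list's median log2 fold change at the bar's end. No gene of any list passed as higher; the cytosolic DNA list has 8 of 8 lower and the MyD88 kinase and ligase list 1 of 12.

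Markers of other cell types were set beside these genes. Of the 12 microglia markers 8 were lower and 1, Fcrls, higher in Sham Mef2c than in Sham Gfp libraries, while P2ry12, a marker of resting microglia, stayed between 27.7 and 35.5 CPM in all 24 libraries. P2ry12 overlaps the more abundant Med12l on the other strand over 46600 bases, and the counts may include introns, so its level is uncertain. Monocyte and neutrophil markers summed to 0.724 to 2.92 CPM in Sham Mef2c and 2.21 to 27.3 CPM in Sham Gfp libraries, and B cell markers to 1.02 to 1.84 CPM in Sham Mef2c and 1.54 to 11 CPM in Sham Gfp libraries. T and NK cell markers summed to 8.8 to 28.3 CPM in Sham Mef2c, with Cd8a and Gzmb at 0 in all 6 libraries, and to 19.6 to 65.3 CPM in Sham Gfp libraries. Of the markers tested, 3 of 3 for monocytes and neutrophils, 5 of 5 for B cells and 6 of 7 for T and NK cells were lower. The median log2 fold changes of these 3 lists were -3.69, -2.86 and -7.02. Border macrophage markers summed to 13.1 to 46.1 CPM in Sham Mef2c and 15.3 to 47.6 CPM in Sham Gfp libraries, with 1 of 4 tested lower. Plasmacytoid dendritic cell markers summed to 440 to 508 CPM in Sham Mef2c and 436 to 541 CPM in Sham Gfp libraries, with 2 of 5 tested lower. Log2 fold changes of these 5 markers ran from -4.84 to 0.11, with a median of 0.01. Their flat sum thus does not describe every marker, and it does not measure how many such cells were present. Astrocyte markers, of the cell type named above for Tlr3, summed to 898 to 1030 CPM in Sham Mef2c and 986 to 1620 CPM in Sham Gfp libraries, with 3 of 5 lower and a median log2 fold change of -0.43. The part of each of these cell types in the receptor levels was not tested.

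The receptors were also expressed relative to microglia markers of the same library. The log2 level of each gene minus the mean log2 level of the 12 microglia markers was lower in Sham Mef2c libraries, without overlap, for Tlr1, Tlr2, Tlr4, Tlr7, Tlr9, Tlr13 and Unc93b1. For Tlr2 it was -3.54 ± 0.30 in Sham Mef2c and -1.31 ± 0.65 in Sham Gfp libraries (SD, n = 6 each; exact permutation p = 0.00216, two-sided and unadjusted). For Tlr4 the difference was smaller, at -3.10 ± 0.19 in Sham Mef2c and -2.51 ± 0.26 in Sham Gfp libraries (exact permutation p = 0.00216). For Tlr3 and Myd88 the groups overlapped, with differences of -0.39 (exact permutation p = 0.00649) and -0.29 (exact permutation p = 0.0671). For Mavs the difference ran the other way, at 0.62 (exact permutation p = 0.00433). These were 10 of 40 such differences over 4 comparisons, a measure chosen after the values were seen. The marker mean is a rough measure of microglia, since P2ry12 and Gpr34 overlap more abundant genes and Fcrls was higher in Sham Mef2c libraries, and the part of microglial number in these differences was not tested.

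**Figure D4:**
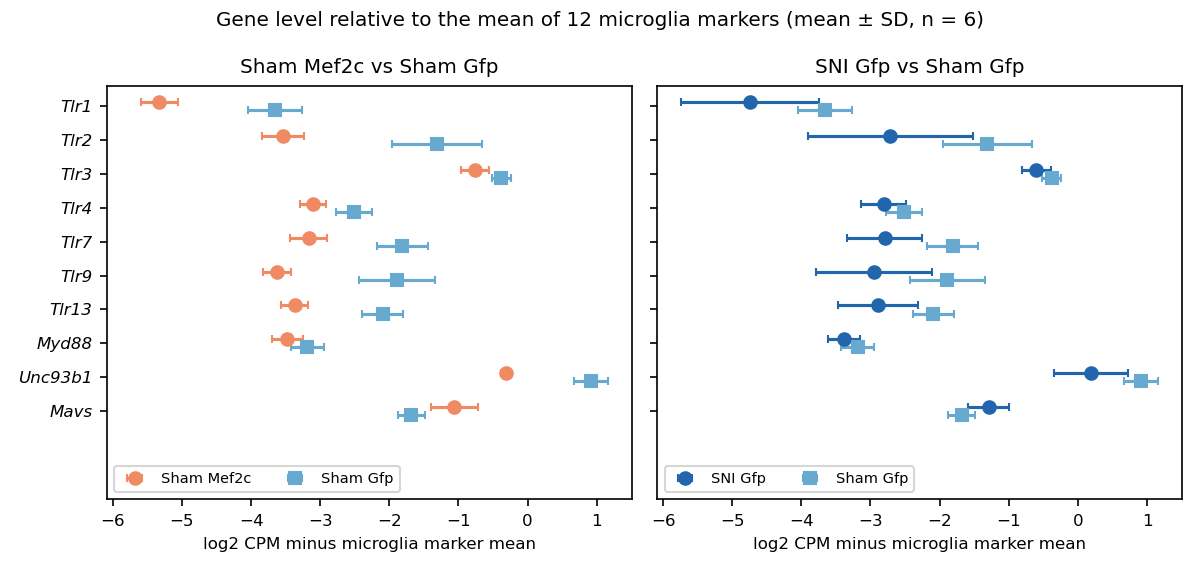
Log2 CPM of each gene minus the mean log2 CPM of 12 microglia markers in the same library (horizontal axis; points are means and bars the SD of 6 libraries) for Sham Mef2c and Sham Gfp (left) and SNI Gfp and Sham Gfp (right). On the left Tlr2 sits at -3.54 in Sham Mef2c and -1.31 in Sham Gfp libraries, while Mavs lies further right in Sham Mef2c.

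With the Egfp virus, nerve injury gave no call by edgeR. In SNI Gfp against Sham Gfp libraries 0 of the 10 genes passed, as did 0 of all 23738 genes (0.0%) by edgeR. At an unadjusted p under 0.05, 9 of the 10 were lower, beside 8.45% of all genes. The smallest p among the 9 were those of Tlr7, at a log2 fold change of -1.28 ± 0.30, and Tlr3, at -0.62 ± 0.16 (edgeR adjusted p = 0.0929 each), and Mavs was at -0.05 ± 0.11 (edgeR adjusted p = 0.919). Other tools passed more: DESeq2 6 of the 10 (2.29% of all genes), limma-voom with quality weights 9 (11.7%), and limma on log2(FPKM + 1) 8 (3.08%), all lower.

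The libraries of the SNI Gfp group did not behave alike. Library 6 was the highest and library 4 the second highest for each of the 9 genes other than Mavs. Tlr2 stood at 16 CPM in SNI Gfp library 6, 10.9 CPM in library 4 and 1.17 to 3.68 CPM in libraries 1, 2, 3 and 5, against 5.32 CPM in the lowest Sham Gfp library. Unc93b1 stood at 69.3 CPM in SNI Gfp library 6, 50.8 CPM in library 4 and 17 to 22.6 CPM in the other libraries, against 41.7 CPM in the lowest Sham Gfp library. In Sham Gfp libraries, library 3 was the lowest for all 9 genes. Left out on its own, SNI Gfp library 6 took the number passing to 9 of 10 (5.83% of all genes) and Sham Gfp library 3 took it to 7 of 10 (3.68%), all lower. Monocyte and neutrophil markers spread in the same groups, at 0.819 to 22.1 CPM in SNI Gfp and 2.21 to 27.3 CPM in Sham Gfp libraries, and microglia markers at 454 to 849 CPM in SNI Gfp and 713 to 1010 CPM in Sham Gfp libraries. Astrocyte markers summed to 1440 CPM in SNI Gfp library 6, 1300 CPM in library 4 and 844 to 1040 CPM in libraries 1, 2, 3 and 5, against 986 CPM in Sham Gfp library 3 and 1220 to 1620 CPM in the other Sham Gfp libraries. Cortical neuron markers summed to 1110 CPM in SNI Gfp library 4 and 131 to 285 CPM in the other SNI Gfp libraries, against 156 to 691 CPM in Sham Gfp libraries. Their part in the receptor levels was not tested.

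With the virus carrying Mef2c, no gene of the 10 passed between surgeries. In SNI Mef2c against Sham Mef2c libraries 0 of the 10 genes passed by edgeR, DESeq2 or limma-voom with quality weights, and 0 of all genes (0.0%) passed by edgeR. Without Sham Mef2c libraries 2 and 5 the number was also 0. Tlr2 had 1.37, 1.95 and 3.01 CPM in SNI Mef2c and 1.4, 1.78 and 2.51 CPM in Sham Mef2c libraries, and Unc93b1 15.7, 18.8 and 21.4 CPM in SNI Mef2c and 14.8, 17.4 and 21.2 CPM in Sham Mef2c libraries, with overlapping ranges for both. The fitted log2 fold changes of the 9 genes other than Mavs lay between -0.07 for Tlr4 and 0.30 for Tlr3. Standard errors reached 0.52 for Tlr2, so a modest change of that gene was not detectable here.

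Mavs was the one gene of the 10 past an unadjusted edgeR p of 0.05 in that comparison, where 16.1% of all genes passed and 7.57% passed as lower. It had 6.82, 7.51 and 8.7 CPM in SNI Mef2c and 8.67, 10.0 and 12.4 CPM in Sham Mef2c libraries, and 5 of 6 SNI Mef2c libraries lay below every Sham Mef2c library. The log2 fold change was -0.45 ± 0.11 (edgeR adjusted p = 0.223; exact permutation p = 0.00433). With the cortical neuron markers as a covariate it was -0.33 ± 0.09 (edgeR adjusted p = 0.703). These markers summed to 166 to 2070 CPM in SNI Mef2c and 127 to 347 CPM in Sham Mef2c libraries, and their part in the Mavs level was not tested further. The lowest, median and highest levels of Tlr3 were 13.7, 14.1 and 21.1 CPM in SNI Mef2c and 10.3, 13.4 and 14.0 CPM in Sham Mef2c libraries. The edgeR adjusted p was 0.373 and the exact permutation p 0.0152, unadjusted, with 3 of 6 SNI Mef2c libraries above every Sham Mef2c library. SNI Mef2c libraries 1 and 4 had the most Tlr3, at 21.1 and 17.4 CPM. They also had the highest cortical marker sums of that group, at 2070 and 495 CPM. The part of these markers in the Tlr3 level was not tested further.

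Between vectors after nerve injury, none of the 10 passed by edgeR. In SNI Mef2c against SNI Gfp libraries the number was 0 of 10, where 1 of all genes (0.00421%) passed. At an unadjusted edgeR p under 0.05, 9 of the 10 were lower, beside 8.44% of all genes, and Tlr3 was the one that did not reach it. The exact permutation p, also unadjusted, was 0.0152 for Tlr4, 0.00433 for Mavs and 0.0671 to 0.662 for the other 8. Without SNI Gfp library 6, the log2 fold change of Tlr1 was -0.81 ± 0.38, against -1.38 ± 0.45 with it, and that of Tlr2 was -0.96 ± 0.44, against -1.54 ± 0.50 with it. Tlr9 was at a log2 fold change of -1.33 ± 0.40 (edgeR adjusted p = 0.154), Tlr4 at -0.70 ± 0.20 (edgeR adjusted p = 0.146) and Tlr3 at -0.14 ± 0.16 (edgeR adjusted p = 0.726). Mavs had 6.82, 7.51 and 8.7 CPM in SNI Mef2c and 8.57, 10.5 and 12.0 CPM in SNI Gfp libraries, and its log2 fold change was -0.43 ± 0.11 (edgeR adjusted p = 0.104). DESeq2 passed Tlr4, Tlr9 and Mavs (1.88% of all genes), as did edgeR without SNI Gfp library 2 (1.58%), all 3 lower.

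Whether the difference of surgery depended on the vector was tested as an interaction. By edgeR 0 of the 10 genes and 0 of all genes (0.0%) passed, and DESeq2 passed 0 of the 10. At an unadjusted p under 0.05, 8 were positive and Mavs was negative, beside 14.9% of all genes in either direction and 7.12% as negative. Positive here means that the log2 difference, SNI minus sham, was higher with Mef2c than with Gfp. Tlr3 stood at 0.92 ± 0.23 and Tlr7 at 1.35 ± 0.43, while Mavs stood at -0.39 ± 0.15 (edgeR adjusted p = 0.313 each). limma-voom with quality weights passed all 10, in the same directions, where it passed 17.2% of all genes. Without SNI Gfp library 6, edgeR passed Tlr3, Tlr7, Tlr13 and Unc93b1, beside 1.13% of all genes. The comparisons share groups, so their values are set side by side and not correlated.

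Within groups, libraries high for one of these genes tended to be high for the others, Mavs least so. Across the 24 libraries, after removal of each group's mean from log2 CPM, the 36 pairs among the 9 genes other than Mavs had a Pearson r of 0.653 to 0.942, with a median of 0.851. Without the SNI Gfp libraries the 18 that remained gave 0.315 to 0.83, with a median of 0.692. The 9 pairs with Mavs had a median of 0.308. The pairs share libraries and their depth, and the values describe these libraries only.

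The genes whose deviations followed each member most closely, by the same r over 24 libraries, differed by member. For Unc93b1 they were Mpeg1, a macrophage perforin-like gene, at 0.986, and the complement genes C1qb and C1qc at 0.985 and 0.984. For Tlr3 they included Cflar and the astrocyte water channel Aqp4, at 0.902 and 0.892. For Tlr4 they included Eif2ak2 and Parp12 at 0.946 and 0.938, and for Tlr7 Parp9 and Lgals9 at 0.953 and 0.951. For Tlr2 they included Cxcl16 at 0.939, for Tlr9 Fyb and Tnfrsf1b at 0.96 and 0.958, and for Myd88 Sh3bp2 and Slc29a3 at 0.945 and 0.935. Tlr1 and Tlr13 were among each other's nearest genes, at 0.942. For Mavs they were Exoc3l4, Trim26 and Pik3ip1, at 0.885, 0.884 and 0.87. Without the SNI Gfp libraries, the 18 that remained gave 0.779 for Tlr1 with Tlr13 and 0.846 for Tlr2 with Cxcl16. They gave 0.945 for Unc93b1 with Mpeg1 and 0.872 for Mavs with Exoc3l4.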

How the data were processed

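Per the labels' protocols, RNA was isolated with TRIzol and chloroform from accumbens punches of both sides, and libraries were made with a stranded mRNA kit. The authors deposited raw counts per gene and FPKM. Counting used featureCounts on mm10, per the submitters' processing notes; no aligner, annotation or version is given in the sources used here. Deposited FPKM equalled count over library total over one gene length for 100.0% of values (tolerance 1e-06). That length equalled the whole gene span for 43089 of 43384 genes compared, so the counts may include introns. Which reads were counted was not tested.

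From these, edgeR 4.0.16 (R 4.3.3) fitted all 24 libraries with 1 coefficient per group, TMM scaling, filterByExpr and a robust quasi-likelihood test, with Benjamini-Hochberg adjustment over 23738 genes and a threshold of 0.05. A standard error is the log2 fold change over the square root of F. DESeq2 1.42.0, limma 3.58.1 (voom with quality weights, and FPKM with 1 or 0.1 added), other scalings and filters, a replicate block, a cortical marker covariate and each library left out were tried. The edgeR script was tested on simulated data. Exact permutation tests covered all assignments of the 12 libraries compared (log2 CPM, prior count 2).

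The genes and lists were chosen with earlier results of these data known. Named were all 10 genes in every comparison, up to 4 genes per role list by smallest p in Sham Mef2c against Sham Gfp, Tlr6, Tlr8, Ifih1, Ddx58, Ticam1 and Irf7, and the 3 most similar genes per member. Tasl had no matching symbol, and a few genes that this rule names are not reported here. Coordinates are those of mm10, and promoters come from RefSeq on GRCm38.p6. Replicate pairs of 1 group differed by at least 3.22 chi-square units per degree of freedom, so no library was a copy of another in its own group. Libraries of different groups were not compared in this way.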

Additional observations from a re-analysis of the deposited data

How the results depend on the processing

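In Sham Mef2c against Sham Gfp the number of the 10 genes passing was 9 in all 12 other settings and all 24 fits that left out 1 library. In SNI Gfp against Sham Gfp it was 0 by edgeR, 6 by DESeq2, 8 with FPKM plus 1, 9 with FPKM plus 0.1, 9 by limma-voom with quality weights, and 0 to 9 with 1 library left out. In SNI Mef2c against SNI Gfp it was 0 by edgeR, 3 by DESeq2 and 0 to 3 with 1 library left out. For the interaction it was 0 by edgeR, 10 by limma-voom and 0 to 4 with 1 library left out. The cause of these differences between tools was not tested. In SNI Mef2c against Sham Mef2c it was 0 in every setting.

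Fold changes near 0 changed sign in SNI Mef2c against Sham Mef2c. Tlr1 was at 0.03 by edgeR and at -0.002 with FPKM plus 0.1, -0.0 with FPKM plus 1, -0.013 with the cortical covariate, -0.002 with library size alone and -0.067 without Sham Mef2c libraries 2 and 5. Tlr7 was at -0.05 with the covariate and -0.055 by limma-voom, where Tlr13 was at 0.035. With 1 library left out, the values ran from -0.075 to 0.117 for Tlr1, -0.046 to 0.135 for Tlr7, -0.115 to 0.054 for Tlr9, -0.111 to 0.041 for Tlr13 and -0.102 to 0.011 for Myd88. Mavs ran from -0.094 to 0.049 in Sham Mef2c against Sham Gfp and from -0.091 to 0.035 in SNI Gfp against Sham Gfp, and Tlr3 from -0.236 to 0.032 in SNI Mef2c against SNI Gfp.

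The replicate numbers did not pair the libraries. Same-numbered libraries correlated in their deviations at a median of -0.091 (range -0.771 to 0.671, 36 pairs), and 3 of 72 closest matches shared a number. The replicate block left 9, 0, 0, 0 and 0 of the 10 genes passing in the comparisons and the interaction, and moved Tlr9 in SNI Mef2c against Sham Mef2c to 0.006. Depth limits Tlr1 most, at 12 to 22 counts in SNI Mef2c and 13 to 19 in Sham Mef2c libraries.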
